A study of Mus musculus with 5 samples.

Results

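The 10 integrin genes described here are Itgax, Itgam, Itgal, Itgae, Itga4, Itgav, Itgb1, Itgb2, Itgb3 and Itgb7, which encode adhesion receptor subunits used by myeloid cells. Their regions were those that the authors' deposited lists gave under the symbol of one of them, or that lay within 5 kb of its listed transcription start. Of the 10 genes, 9 had a listed start, among 13947 protein-coding genes with one. Itgae had none, because no region in any of the 4 lists carried its name.

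The data were chromatin immunoprecipitation sequencing (ChIP-seq) libraries of dendritic cells grown for 7 days from the marrow of C57BL/6 female mice aged 10 weeks, with the cytokines GM-CSF and IL-4, each at 10 ng/mL. All groups were selected for CD11c to 95% purity per the labels, and CD11c is itself the product of Itgax. SAHA (vorinostat, a histone deacetylase inhibitor) was given for 12 hours at a dose labelled 500 nm, and the other cells received diluent for the same time. The groups, with 1 library each, were H3K4me3 in SAHA cells, H3K4me3 in diluent cells, STAT3 in SAHA cells, STAT3 in diluent cells and rabbit IgG in diluent cells. No IgG library from SAHA cells was used here. No group had a replicate, so no difference between SAHA and diluent could be tested, and every interval below covers counting error only.

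Integrins are pairs of 1 alpha and 1 beta subunit that link the cell surface to the matrix or to other cells. CD18, the product of Itgb2, pairs with CD11a (Itgal), CD11b (Itgam) and CD11c (Itgax) in leukocytes. The product of Itgb7 pairs with CD49d (Itga4) for homing to gut vessels and with CD103 (Itgae) on dendritic cells and lymphocytes of mucosal tissue, while CD29 (Itgb1) and CD51 (Itgav) have many partners, and CD61 (Itgb3) pairs with CD51. H3K4me3 is a histone mark found at the starts of active genes, and STAT3 is a transcription factor activated by cytokine receptors.

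RefSeq promoters of 300 bases, 250 before and 50 after the start in the GRCm38.p6 build, were at hand for 6 of the genes. Those of 4 genes that lay at opposite ends of the H3K4me3 levels described further on are shown 5′ to 3′ with each CpG in capitals. Itgb7 had the largest H3K4me3 ratio, Itgax encodes the protein the cells were selected on, and Itga4 and Itgb1 had the highest H3K4me3 per kb in diluent cells.
Itgb7 (chr15:102231886-102232185, minus strand): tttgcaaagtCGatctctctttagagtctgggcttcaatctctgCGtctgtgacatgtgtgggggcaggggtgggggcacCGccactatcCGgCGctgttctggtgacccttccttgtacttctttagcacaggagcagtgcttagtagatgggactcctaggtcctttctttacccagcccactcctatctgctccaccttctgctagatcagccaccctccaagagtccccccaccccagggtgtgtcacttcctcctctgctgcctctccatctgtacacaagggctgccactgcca
Itgax (chr7:128129300-128129599, plus strand): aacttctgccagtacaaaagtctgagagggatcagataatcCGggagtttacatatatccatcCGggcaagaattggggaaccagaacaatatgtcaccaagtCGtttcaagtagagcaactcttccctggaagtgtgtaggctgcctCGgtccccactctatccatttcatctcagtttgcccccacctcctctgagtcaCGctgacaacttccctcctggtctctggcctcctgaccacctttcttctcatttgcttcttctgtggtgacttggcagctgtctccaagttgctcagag
Itga4 (chr2:79255176-79255475, plus strand): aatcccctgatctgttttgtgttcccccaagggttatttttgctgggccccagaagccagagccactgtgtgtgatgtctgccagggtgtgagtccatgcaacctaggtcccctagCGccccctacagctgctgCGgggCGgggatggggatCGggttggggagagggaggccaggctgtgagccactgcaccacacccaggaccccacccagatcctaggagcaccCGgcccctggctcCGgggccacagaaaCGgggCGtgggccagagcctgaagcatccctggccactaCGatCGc
Itgb1 (chr8:128685404-128685703, plus strand): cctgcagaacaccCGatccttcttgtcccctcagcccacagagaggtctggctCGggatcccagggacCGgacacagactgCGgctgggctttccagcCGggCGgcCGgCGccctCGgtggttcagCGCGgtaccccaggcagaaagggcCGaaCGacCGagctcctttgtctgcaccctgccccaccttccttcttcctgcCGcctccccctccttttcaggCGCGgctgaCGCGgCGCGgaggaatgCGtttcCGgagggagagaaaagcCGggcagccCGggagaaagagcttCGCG

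The window of Itgb1 held 27 CpG, that of Itgav 24, that of Itga4 10, that of Itgam 6, and those of Itgax and Itgb7 held 5 each. Over 32851 promoters of the same length the median was 7, with quartiles of 3 and 20. The motif TTCNNNGAA, read on both strands as the STAT palindrome, was in none of the 6 windows and in 8.3% of all promoters. GAGGAAGT, a motif of the PU.1 kind of ETS factor, was in the windows of Itgb7 and Itgav and in 3.2% of all promoters; both matches lay on the opposite strand, with their first base at position 1 for Itgb7 and at position -9 for Itgav, counted from the start. GGGCGG, the GC box, was in the windows of Itga4, Itgam, Itgav and Itgb1 and in 35.7% of all promoters, and TATAAA was in none of the 6 and in 13.6% of all. A match is a run of letters and not a measured site, and the positions of the regions given below are in the mm9 build.

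All 9 integrin genes with a listed start carried H3K4me3 within 5 kb of it in SAHA cells and in diluent cells. Among the protein-coding genes with a listed start, 85.5% carried such a region in SAHA cells and 84.5% in diluent cells, so presence of the mark did not set these genes apart. Both the count and the shares leave out genes that no region was named for, such as Itgae. The 10 genes had 32 H3K4me3 regions in SAHA cells, 16 of them within 5 kb of a start, and 21 regions in diluent cells, 13 of them within 5 kb. Itgb1 had the most, 8 in SAHA cells and 5 in diluent cells. None of these regions overlapped a region of the IgG library. The lists were called against IgG and the share over all regions was not counted, so this does not set the integrin genes apart. Of the 32 regions in SAHA cells, 11 overlapped no region in diluent cells, where 17.8% of all SAHA regions did so. Of the 21 regions in diluent cells, 0 overlapped no region in SAHA cells, where 5.37% of all diluent regions did so.

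**Figure D1:**
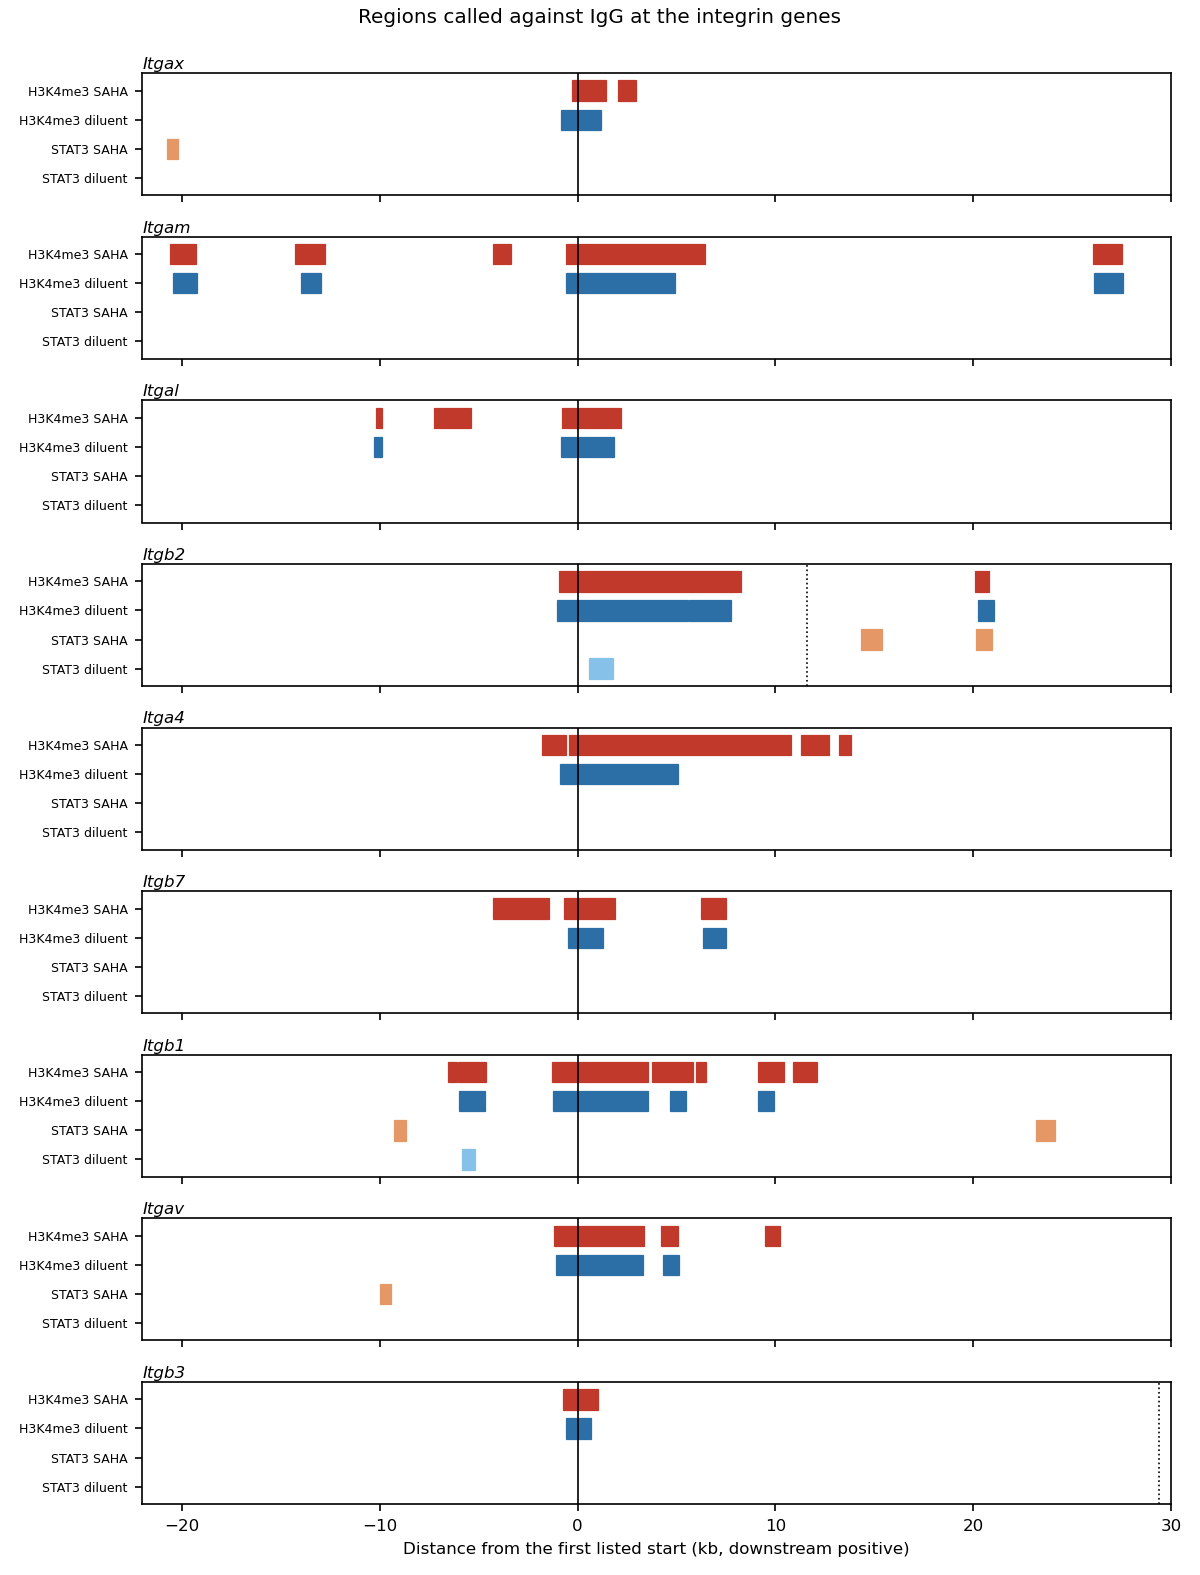
H3K4me3 and STAT3 regions called against IgG at the 9 integrin genes with a listed start, by distance in kb from the first listed start (solid line, downstream positive); dotted lines mark a second listed start within view. All 9 genes have H3K4me3 over the first start in SAHA and in diluent cells, SAHA regions at Itga4 and Itgb7 extend over more of the locus, and only Itgb2 has STAT3 regions within 5 kb of a start.

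Tags, the sequenced fragments counted in a region, came from tables called on each library alone. Regions of both H3K4me3 libraries that overlapped were joined into 1 locus, tags were scaled per 1e6 of the 21428355 filtered tags of the SAHA library and the 22420200 of the diluent library, and each log2 ratio is SAHA over diluent. A locus was counted as past the limit at 1.5-fold. Since regions were called separately in each library, each ratio is also given per kb of called width.

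Among the integrins of CD18, the locus over the start of Itgam was large and nearly equal, those of Itgal and Itgax were smaller, and none was past 1.5-fold. Itgax had 141 tags over 1724 bp in SAHA cells, against 192 tags over 2052 bp in diluent cells. This is a log2 ratio of -0.38 (95% interval -0.70 to -0.06), and of -0.13 per kb, the lowest tag ratio among the 7 integrin starts that had one. A further Itgax region in SAHA cells, 2036 bp downstream of the start, overlapped no diluent region and had no tag count.

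Itgam had 1442 tags over its start in SAHA cells and 1334 in diluent cells, a log2 ratio of 0.18 (0.07 to 0.29). Its called width was 7025 bp in SAHA cells against 5495 bp in diluent cells, and per kb the ratio turned to -0.18. Itgam had 3 further loci counted in both libraries. The one 12768 bp upstream had 94 tags in SAHA cells and 52 in diluent cells, a log2 ratio of 0.92 (0.42 to 1.44) and of 0.37 per kb, so it was past 1.5-fold only by its tag sum. The one 19231 bp upstream had 159 tags in SAHA cells and 150 in diluent cells, and the one 26047 bp downstream had 120 and 139. Both of these intervals include 0.

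Itgal had 543 tags over its start in SAHA cells, against 393 in diluent cells, a log2 ratio of 0.53 (0.34 to 0.72) and of 0.36 per kb. A region 5397 bp upstream with 94 tags was called in SAHA cells only, 2618 bp from the nearest diluent region. The small locus 9859 bp upstream held 23 tags in SAHA cells and 21 in diluent cells, too few to place the ratio within a factor of 1.5, with an interval of -0.72 to 1.12 on the log2 scale.

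Itgb2, whose product all 3 of these alpha subunits need, had a single H3K4me3 region of 9217 bp over its first start in SAHA cells, at chromosome 10, 76992141 to 77001357. In diluent cells it had a region of 6621 bp over that start and one of 2157 bp that followed it. The diluent region over the start held 1955 tags. The table called on the SAHA library alone had no region there, so no tag ratio exists for Itgb2, and the same holds for Itga4. Such gaps were common among wide regions: of the regions called against IgG, 86% in SAHA cells and 91% in diluent cells were in the tables with tags, but of those of at least 8 kb 39% and 52.8% were.

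**Figure D2:**
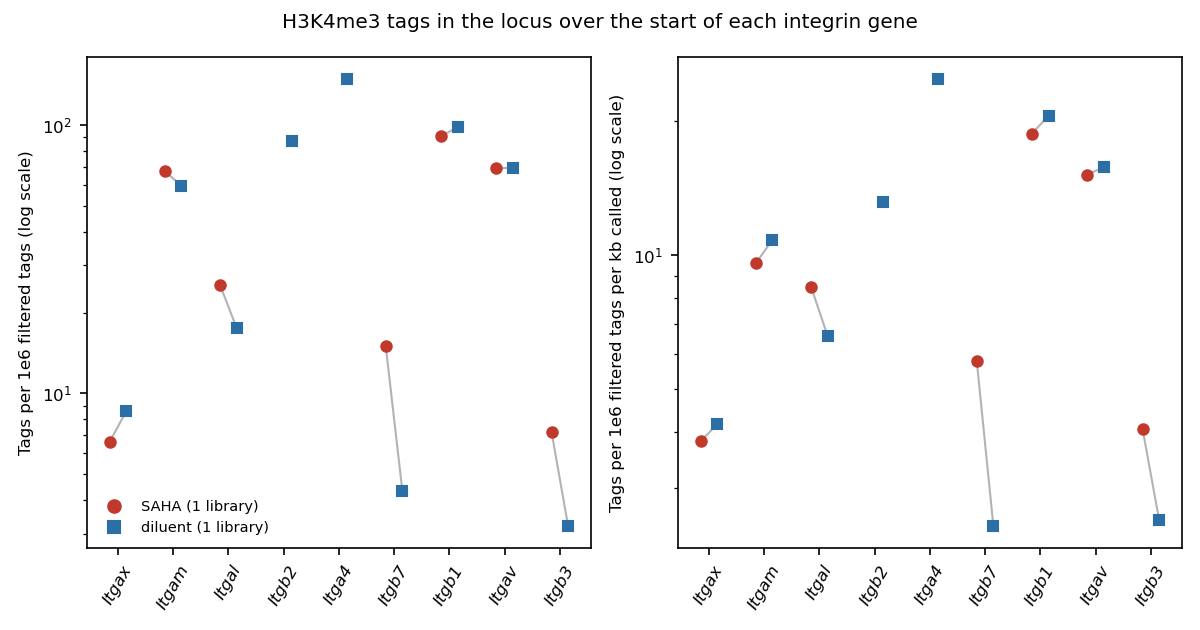
Scaled H3K4me3 tags (per 1e6 filtered tags) in the locus over the start of each integrin gene (left) and the same per kb of called width (right), both on log scales, with circles for the SAHA library and squares for the diluent library. Itgb7 and Itgb3 lie higher in SAHA cells in both panels, while Itga4 and Itgb2 have no counted SAHA region and are shown for diluent cells alone.

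Of the subunits of the gut-homing and mucosal receptors, Itgb7 had the largest tag ratio of the integrin genes, Itga4 had no ratio and Itgae had no region. Itgb7, on the minus strand of chromosome 15, had 321 tags over 2590 bp at its start in SAHA cells, against 97 tags over 1753 bp in diluent cells. The log2 ratio was 1.79 (1.46 to 2.13), a 3.46-fold difference, and 1.23 per kb, or 2.34-fold. Among the start loci of 11473 protein-coding genes, 6.61% were at least 1.5-fold higher in SAHA cells by tag sums and 2.5% at least 2-fold higher; per kb these shares were 3.09% and 0.418%.

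The difference at Itgb7 was not confined to the start. A locus 6226 bp downstream of the start had 238 tags in SAHA cells and 91 in diluent cells, a log2 ratio of 1.45 (1.10 to 1.82), and its called widths of 1289 bp and 1178 bp were close, so that the ratio per kb was 1.32. Upstream, a region of 2813 bp at 102063829 to 102066641, whose near edge lay 1463 bp from the start, held 275 tags in SAHA cells. It overlapped no region in diluent cells, the nearest of which lay 1004 bp away. The nearest other gene start in the lists, that of Rarg, was 14417 bp from the start of Itgb7.

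Itga4, the partner of Itgb7, had the widest H3K4me3 region of the 10 genes, 11232 bp at chromosome 2, 79095145 to 79106376, in SAHA cells. Its diluent region covered 5974 bp and held 3323 tags, the most of any integrin locus, or a scaled level of 24.8 per kb. SAHA cells had a second region of 1206 bp just upstream, listed under the name Integrin Alpha-4, and a pair downstream, 11289 bp and 13186 bp from the start, that overlapped no diluent region. No single-library SAHA region covered any of these, so the wider H3K4me3 at Itga4 rests on called length alone.

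Itgae carried no region of its own in any list. RefSeq places Haspin, listed under the older name Gsg2, inside Itgae. Gsg2 had an H3K4me3 region over its start in both conditions. It held 1454 tags over 4785 bp in SAHA cells and 1398 tags over 4055 bp in diluent cells. A further Gsg2 region without a tag count covered 1122 bp in SAHA cells and 1017 bp in diluent cells. In SAHA cells a STAT3 region with a score of 36.7 was also listed under Gsg2, 9298 bp from its start. Whether any of this signal belongs to Itgae cannot be told apart in these lists.

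Itgb1 had a start locus with 1948 tags in SAHA cells and 2205 in diluent cells, a log2 ratio of -0.11 (-0.20 to -0.03) and of -0.13 per kb. A second Itgb1 locus, 4625 bp upstream of the start, had 292 tags in SAHA cells and 160 in diluent cells. Its log2 ratio was 0.93 (0.65 to 1.22), and with almost equal called widths of 1392 bp and 1354 bp it was 0.89 per kb. The start and this upstream locus of the same gene thus lay on opposite sides of 0, with intervals that do not overlap. Another locus 29893 bp upstream had 130 tags in SAHA cells and 147 in diluent cells, with an interval that includes 0. SAHA cells had 3 further Itgb1 regions that overlapped no diluent region, and gaps of 62 bp, 495 bp and 974 bp set them off from the nearest one.

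Itgav had 1477 tags in SAHA cells and 1556 in diluent cells at its start, a log2 ratio of -0.01 (-0.11 to 0.09), and of -0.05 per kb. It also had a small region of 32 tags 9466 bp downstream in SAHA cells that overlapped no diluent region. Itgb3, which encodes the partner of the Itgav product, had far fewer tags, 154 in SAHA cells and 72 in diluent cells. Its log2 ratio was 1.16 (0.75 to 1.59), or 2.24-fold, and 0.68 per kb, or 1.6-fold. A region of 39 tags in SAHA cells lay 9772 bp downstream of the second start listed for Itgb3, 38485 bp from any diluent region.

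**Figure D3:**
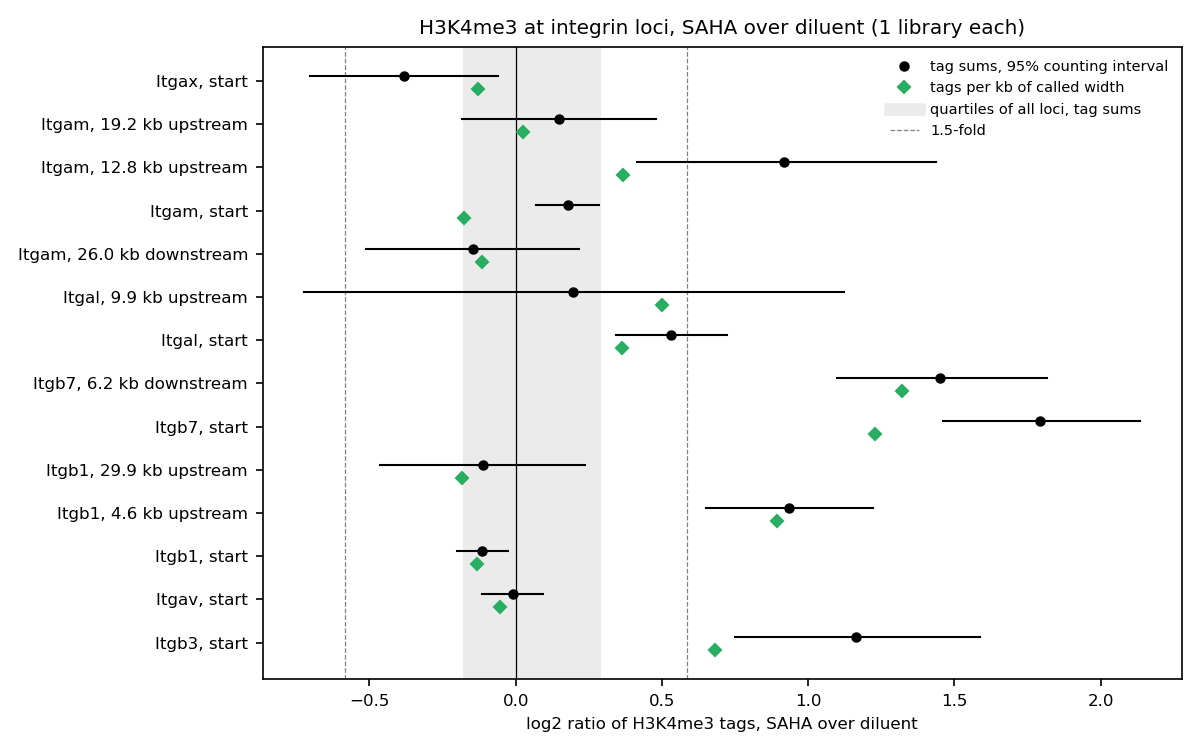
Log2 ratio of H3K4me3 tags, SAHA over diluent, at the 14 integrin loci counted in both libraries; circles are tag sums with 95% counting intervals, diamonds are tags per kb of called width, grey spans the lower to the upper quartile of all loci by tag sums, and dashed lines mark 1.5-fold. The loci of Itgb7 lie farthest to the right by both measures, and no integrin locus lies left of the lower 1.5-fold line.

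Over all integrin loci with tags in both libraries, 5 of 14 were at least 1.5-fold higher in SAHA cells by tag sums and 4 of 14 per kb, and 0 were at least 1.5-fold lower by either measure. Among 19630 loci of the genome, 13.7% exceeded the limit upward by tag sums and 6.3% per kb, and 4.23% and 2.78% did so downward. At a limit of 2-fold, 3 of the 14 were higher by tag sums and 2 per kb, where 5.7% and 0.897% of all loci were. The 5 were both Itgb7 loci, the start of Itgb3, the upstream locus of Itgb1 and the locus 12768 bp upstream of Itgam. At the start itself, 2 of 7 genes, Itgb7 and Itgb3, were past 1.5-fold upward and 0 downward by either measure. Of the start loci of all protein-coding genes, 6.61% passed this limit upward by tag sums and 3.09% per kb. Downward, 1.97% did so by tag sums and 1.87% per kb. The median log2 ratio over the 7 start loci was 0.18 by tag sums and -0.05 per kb, beside -0.04 and -0.12 over the start loci of all protein-coding genes. Loci of the same gene share their chromatin and their libraries and are not independent.

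Set per length, the integrin starts spanned a wide range of levels in each library. In SAHA cells the scaled tags per kb of called width were 18.8 at Itgb1, 15.2 at Itgav, 9.58 at Itgam, 8.49 at Itgal, 5.78 at Itgb7, 4.08 at Itgb3 and 3.82 at Itgax. In diluent cells they were 24.8 at Itga4, 20.6 at Itgb1, 15.7 at Itgav, 13.2 at Itgb2, 10.8 at Itgam, 6.59 at Itgal, 4.17 at Itgax, 2.55 at Itgb3 and 2.47 at Itgb7. The first 4 genes counted in both libraries kept their order, and Itgb7 and Itgb3 lay above Itgax in SAHA cells and below it in diluent cells. With 1 library per group, no spread between libraries is known that would say which neighbours in this order differ. Among the 5 genes with a promoter window and a level in both libraries, Itgb1 and Itgav, with the most CpG, had the highest levels in each library, and Itgax and Itgb7, with the fewest, the lowest. Itga4, with fewer CpG than Itgb1, had a higher level than Itgb1 in diluent cells.

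The summed length of the H3K4me3 regions within 5 kb of a start could be compared for all 9 genes, with each region counted whole. This measure was added because Itga4 and Itgb2 lacked tag counts in SAHA cells. It was greater in SAHA cells at all 9 genes, as for most genes. Over protein-coding genes the median log2 length ratio was 0.09, with quartiles of -0.004 and 0.227. At Itgax the region over the start was narrower in SAHA cells, 1724 bp against 2052 bp. Only a separate region of 915 bp made its sum greater. At Itgb7 it was 5403 bp in SAHA cells and 1753 bp in diluent cells, and at Itga4 12438 bp and 5974 bp, ratios of 3.08 and 2.08. These were the 2 of 9 past 1.5-fold, where 5.41% of genes with regions in both libraries were at least 1.5-fold longer and 0.877% at least 1.5-fold shorter. The count depended on the distance, with 1 gene, Itga4, within 1 kb and 4 within 10 kb. At Itgb7 the region over the start was 2590 bp in SAHA cells against 1753 bp in diluent cells, below the limit. The rest of its SAHA length was the separate upstream region of 2813 bp. The other 7 ratios lay between 1.04 at Itgav and 1.45 at Itgam.

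**Figure D4:**
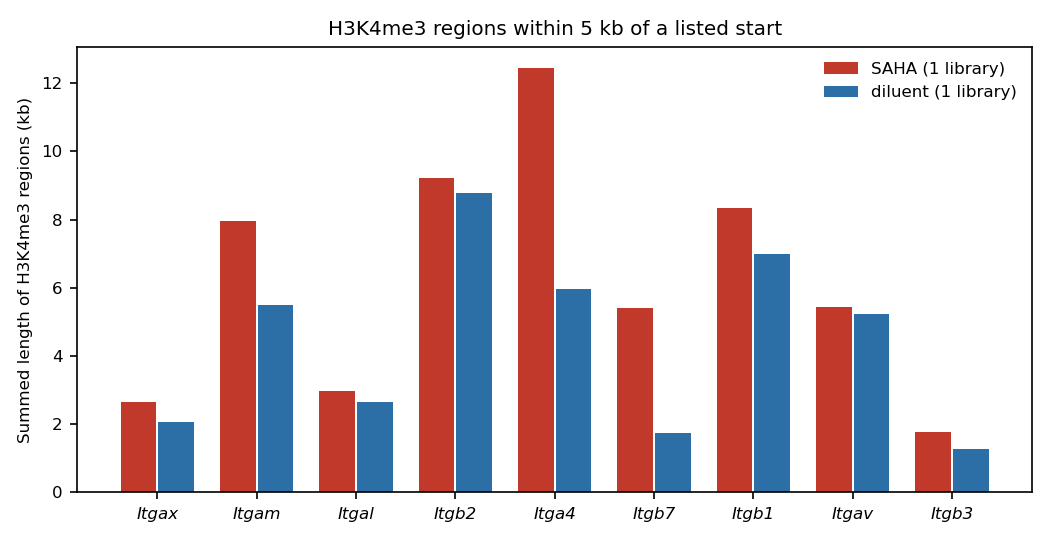
Summed length in kb of the H3K4me3 regions within 5 kb of a listed start of each integrin gene, with the SAHA library left of the diluent library. SAHA bars are taller at all 9 genes, by 3.08 times at Itgb7 and 2.08 times at Itga4.

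STAT3 was read within the same distance. Within 5 kb of a start, 1 of 9 genes had a STAT3 region in SAHA cells and 1 of 9 in diluent cells, where 18.4% and 6.37% of protein-coding genes had one, a count too small to set these genes apart. The gene was Itgb2 in both, but the regions lay 12562 bp apart. In SAHA cells the region spanned 77007430 to 77008496, 2753 bp downstream of the second listed start, with a score of 30.9 in the authors' deposited list. In diluent cells it spanned 76993666 to 76994867, 573 bp downstream of the first start and inside the H3K4me3 region there, with a score of 35.7 in its own list. The scores serve only within a list, where the lowest STAT3 scores are near 30.

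Counting regions named for an integrin gene at any distance, there were 9 STAT3 regions in SAHA cells and 4 in diluent cells. None of the 9 overlapped a diluent region and none of the 4 a SAHA region, which was also so for 97.2% and 93.3% of all STAT3 regions. The 9 SAHA regions belonged to Itgav with 3, Itgb1 with 3, Itgb2 with 2 and Itgax with 1. The 4 diluent regions belonged to Itgb1 with 3 and Itgb2 with 1. The highest score among the 9 was 43.4, at Itgb1, 14439 bp upstream of its second listed start. At Itgb1 in diluent cells a region with a score of 40.8, at chromosome 8, 131203718 to 131204386, lay 5168 bp upstream of the first start, just outside the limit of 5 kb. It fell within the upstream H3K4me3 locus of Itgb1, the one that held 292 tags in SAHA cells and 160 in diluent cells. In SAHA cells the nearest STAT3 region to that start lay 8691 bp away and overlapped no H3K4me3 region. At Itgb2 a SAHA region with a score of 39.3, at 77013212 to 77014052, overlapped an H3K4me3 region called in both conditions.

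For Itgb7 the nearest STAT3 region in SAHA cells lay 10978 bp from the start and was assigned to Rarg, and in diluent cells it lay 227797 bp away. For Itgax the distances were 20192 bp in SAHA cells and 213584 bp in diluent cells, and for Itga4 they were 123024 bp and 369311 bp. Neither Itgb7 nor Itga4, the genes with the largest differences in H3K4me3 length, had a STAT3 region within 5 kb. The list of SAHA STAT3 regions held 8551 and that of diluent cells 3507. The SAHA STAT3 library had 17810183 filtered tags and the diluent one 25013431. The cause of the difference in the number of regions was not tested.

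The rest of the integrin system was read from 3 lists. Over protein-coding genes with a listed start, H3K4me3 lay within 5 kb at 85.5% in SAHA cells and 84.5% in diluent cells. Of the start loci of protein-coding genes with tags in both libraries, 6.61% were at least 1.5-fold higher by tag sums and 1.97% lower. Per kb these shares were 3.09% and 1.87%. Of 17 other integrin subunits, 13 had a listed start, and 11 of these carried H3K4me3 within 5 kb in SAHA cells and 10 in diluent cells. At the 9 with tags in both libraries, 0 were past 1.5-fold in either direction, and the median log2 ratio was 0.14 by tag sums and per kb alike. The highest per kb were Itga8 at 0.24, the collagen receptor subunit Itga2 at 0.20 and Itgb5 at 0.14. The lowest were Itga6, a laminin receptor subunit, at -0.24, Itgb8 at -0.03 and Itga1 at -0.01. By tag sums Itgb8 was at 0.17 and Itga1 at 0.19. Itga5, which encodes the fibronectin receptor alpha subunit, was the one with a STAT3 region in SAHA cells and in diluent cells. The authors' scores were 53.7 and 45.2. Itga5 had no tag ratio, so it is not among the 9. Its H3K4me3 regions within 5 kb summed to 11329 bp in SAHA cells and 5352 bp in diluent cells. That summed length was shorter in SAHA cells at Itga3, Itga6 and Itga8.

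Of 32 activators, adaptors and kinases of integrin signalling, 27 had a listed start, and 26 carried H3K4me3 in SAHA cells and 26 in diluent cells. Among 25 start loci with tags in both, 1 was past 1.5-fold by tag sums and per kb. This was Rasgrp2, an exchange factor that loads Rap1 to switch integrins on, with 470 tags in SAHA cells and 203 in diluent cells, a log2 ratio of 1.28 (1.04 to 1.52) and of 0.79 per kb. It was followed per kb by the parvin gene Parvg at 0.53 and the focal adhesion adaptor Pxn at 0.32. The lowest per kb were the talin gene Tln2 at -0.53, the adaptor Skap2 at -0.39 and the kinase Src at -0.39. By tag sums Src was at 0.01. The median log2 ratio was 0.09 by tag sums and -0.13 per kb. STAT3 regions within 5 kb were present at 8 of the 27 genes in SAHA cells and 4 of 27 in diluent cells, beside the shares of 18.4% and 6.37% over protein-coding genes. In the authors' SAHA list the highest scores were 53.8 at Ptk2, the focal adhesion kinase gene, 53.6 at Lims1, 50.4 at Skap2, 37.6 at Rasgrp2 and 33.6 at Fyb. In the authors' diluent list Skap2 had 60.9, Fyb 56.3 and Rapgef1 33.3.

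Of 19 ligands and counter-receptors, 13 had a listed start, and 12 carried H3K4me3 in SAHA cells and 12 in diluent cells. At 10 with tags in both, 3 exceeded the 1.5-fold limit upward and 1 downward when tags were summed, but 0 did so per kb. F11r had 2329 tags over 6310 bp in SAHA cells, against 942 over 2956 bp in diluent cells, and Plaur had 1064 tags over 4287 bp against 735 over 3072 bp. Spp1, which encodes osteopontin, had 220 tags over 3250 bp against 105 over 1138 bp. In diluent cells the regions called against IgG within 5 kb summed to 5452 bp at F11r and 1723 bp at Spp1. The diluent tags of these genes thus came from only part of that length. In SAHA cells the sums were 6310 bp and 3250 bp, the same as the widths with tags. Per kb the log2 ratio was 0.28 at F11r and -0.38 at Spp1, the lowest of the list. Vcam1, the ligand of the Itga4 product, had 64 tags in SAHA cells and 122 in diluent cells, a log2 ratio of -0.86 (-1.32 to -0.42) and of -0.29 per kb. Icam1, the ligand of the Itgal product, had 3632 tags over 8801 bp in SAHA cells, against 3051 over 5710 bp in diluent cells. Its log2 ratio was 0.32 (0.25 to 0.39) by tag sums and turned to -0.31 per kb. Cdh1, the ligand of CD103, had the highest ratio per kb at 0.44, with Plaur at 0.12. STAT3 regions within 5 kb were present at Icam1 and Vcam1 in SAHA cells, with authors' scores of 48.0 and 37.2, and at 0 genes of the list in diluent cells.

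**Figure D5:**
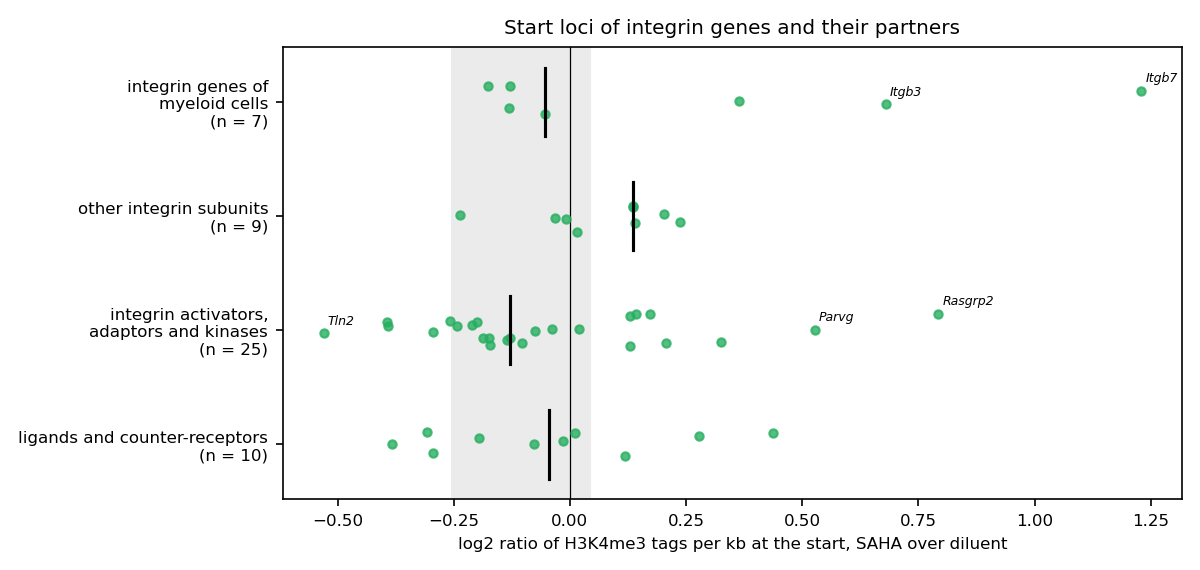
Log2 ratio of H3K4me3 tags per kb, SAHA over diluent, at the start of each gene with tags in both libraries, for the integrin genes of myeloid cells and 3 lists of related genes; black bars are medians and grey spans the lower to the upper quartile of the start loci of all protein-coding genes. Itgb7 lies farthest right at 1.23, followed by Rasgrp2 at 0.79 and Itgb3 at 0.68.

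The labelled cell type was checked against its markers. H3K4me3 lay within 5 kb of all 10 markers of dendritic and antigen presenting cells and of all 6 of macrophages and monocytes in SAHA cells and in diluent cells. Markers of other cells were counted where they had a listed start. In both conditions H3K4me3 was at 2 of 3 for T cells, 1 of 1 for granulocytes, 1 of 1 for erythroid cells, 2 of 3 for platelets and 0 of 1 for NK cells. Starts were listed for 3 of 5 T cell, 1 of 3 granulocyte, 1 of 3 erythroid, 3 of 3 platelet and 1 of 2 NK markers. Cd3e, Cd3g, Mpo, Ly6g, Gata1, Hbb-b1 and Ncr1 had no listed start and so drop out. The shares over protein-coding genes with a listed start were 85.5% in SAHA cells and 84.5% in diluent cells. Cd4, Klrb1c and Gp9 had a listed start but no H3K4me3 region within 5 kb in either condition. Among markers with tags at the start in both libraries, 4 were past 1.5-fold by tag sums. The granulocyte gene Elane had 136 tags in SAHA cells and 33 in diluent cells, the platelet gene Pf4 had 382 and 255, and the antigen presentation gene Ciita had 1788 and 825, all higher in SAHA cells. The macrophage gene Mertk was lower, with 896 tags in SAHA cells and 1468 in diluent cells, and the other platelet marker, Itga2b, was near equal, with 131 and 142. Per kb, Elane and Pf4 stayed past the limit, with log2 ratios of 0.82 and 0.72. Ciita at 0.55 and Mertk at -0.37 did not. Of the start loci of all protein-coding genes, 6.61% passed upward and 1.97% downward by tag sums, and 3.09% and 1.87% per kb. The part of these markers in the differences at the integrin genes was not tested. In bulk chromatin, more cells carrying a mark and more mark per cell cannot be told apart.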

How the data were processed

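The submitters' processing notes name BWA and mm9 for the alignment. Per the file headers, MACS 1.4.0rc2 called the regions of each library alone, with no control, a p-value cutoff of 1e-05 and no more than 2 duplicate tags at a position. These deposited tables give a tag count, a fold enrichment (a ratio over local background, not used for results) and a score per region. The authors' deposited lists against IgG, which have no header, give a score and a gene for each region. The settings behind these lists are not given in the sources used here. FastQC 0.9 tables, as deposited, gave total reads of 22684718 and 24364949 for H3K4me3 in SAHA and diluent cells, 19504014 and 27920130 for STAT3 in SAHA and diluent cells, and 25882793 for IgG, with a read length of 38 bases.

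Overlap meant at least 1 bp. Intervals are exact conditional binomial 95% intervals of a ratio of 2 tag counts. All regions and genes were processed before the rows of the integrin genes were taken. Of 17024 gene names, 87.3% matched RefSeq names of GRCm38.p6, used for names, promoter sequences and the placing of Haspin within Itgae. The 10 genes and all lists were chosen with earlier results of these data known. The genes named from the related lists were the 3 highest and 3 lowest log2 ratios per kb of each, and up to 6 with a STAT3 region by score, plus genes past 1.5-fold. In the SAHA STAT3 list, 1 of 60037 lines over the 4 lists failed all 3 checks of internal agreement: its region number also stood on another line, its transcript identifier belonged to another gene in the other lists, and its distance did not match its own position. That line, assigned to Ido1, was left out, which left 8551 regions; no line of an integrin gene was affected. The ratio calculation was tested on simulated data. Python 3.11.15, numpy 2.4.6, pandas 2.3.3, scipy 1.17.1 and matplotlib 3.10.9 were used. The count over the B cell markers is not reported here.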

Additional observations from a re-analysis of the deposited data

How the results depend on the processing

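With 1 library per group no replicate could be left out. No paired analysis was possible because each group has 1 library and no result comes from a test between libraries. H3K4me3 was found at 9 of the 9 genes with a listed start in both conditions under all 5 alternatives tried. These were 1 kb, 10 kb, a higher score limit, equal numbers of top regions, and no regions over IgG regions. Some of these could not lower the count. The distance of 10 kb only adds regions, no integrin region lay over an IgG region, and equal numbers left the diluent list whole. The count of 1 gene with a STAT3 region was less firm. In SAHA cells it was 0 within 1 kb, 0 at a score of at least 40 and 0 with equal numbers of top regions, and 3 within 10 kb. In diluent cells it was 0 at a score of at least 40 and 2 within 10 kb. Keeping the line that failed the 3 checks, an alternative chosen after seeing the data, left the SAHA count at 1.

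Of 14 ratios, that at the start of Itgam was 0.18 by tag sums and -0.18 per kb, where the called width differed between the libraries. Scaling to total reads added 0.04 to every log2 ratio, which took that at the start of Itgav, whose interval includes 0, across 0, at 0.03 in place of -0.01. The 5 loci at least 1.5-fold higher became 3 at a limit of 2-fold. The count of 2 genes with longer H3K4me3, also chosen after seeing the data, was 1 within 1 kb and 4 within 10 kb. SAHA regions that overlapped no diluent region numbered 14 in place of 11 when an overlap of at least 50% of each region was asked for. The cause of these shifts was not tested. Counts of 100 tags or fewer, as at Itgb3 and Itgb7 in diluent cells, give wide intervals, and regions without a tag count allow no ratio at all.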
